A study of Oryza sativa with 8 samples.

Results

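Among 34119 rice genes in a table of seedling RNA-seq levels, 65 held a near-constant level when wild-type seedlings were placed in polyethylene glycol (PEG) and stood higher in every library of PEG-treated SDG708 RNAi seedlings. They were chosen on FPKM, the reads of a gene scaled by its length and by the size of the library. A member had a mean of at least 1 FPKM in wild-type with and without PEG, with the ratio of the 2 means between 0.8 and its inverse. Its lowest RNAi library was also at least 1.5 times, and not over 16 times, the highest of the 5 wild-type libraries. The first condition left 7014 genes, called PEG-steady here, of which the 65 members are 0.927%. Since the rule used all 8 libraries, the members' levels in them are a description, and a limma call of a member in the comparison of RNAi with wild-type follows from the rule and is no test of it.

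The study compared the transcriptomes of whole seedlings of Oryza sativa under dehydration. The group 708RNAi_PEG (n = 3) carried an RNAi construct against SDG708, in the line 708Ri-1-1, and stood in 20% PEG8000 for 3 h. WT_PEG (n = 2) was wild-type, named NIP in the table, under the same treatment, and WT_control (n = 3) was untreated wild-type. All seedlings were 14 days old, with 7 days on solid medium and 7 days in liquid medium, in short days (10 h at 30 °C in the light, then 14 h at 28 °C in darkness). The RNAi libraries come from 1 line, and no untreated RNAi library was analysed here, so a level that the line has without PEG and a level it reaches in PEG cannot be told apart. The row of SDG708 was not analysed here, so the knockdown is not checked by these values. The labels do not say whether replicates were separate plants or pools.

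PEG draws water out of roots without entering the cells and is used to imitate drought. SDG708 is a histone methyltransferase of the SET domain family, which in rice places methyl groups on a lysine of histone H3, a mark found along transcribed genes.

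The reads recovered from the FPKM steps numbered 30817816 to 49707586 per library, and all 33817 rows above 0 came out as whole reads within 0.01 reads. These reads were 101.4 to 103.3% of the authors' scaling total in 708RNAi_PEG, 97.3 to 98.3% in WT_PEG and 87.0 to 91.3% in WT_control, so the scaling differs by group. Replicate 3 of WT_control stood apart from its group: the mean chi-square per gene was 15.49 against replicate 1 and 13.22 against replicate 2, and 2.21 between replicates 1 and 2. Replicate 2 of 708RNAi_PEG was also farther from replicates 1 (7.84) and 3 (6.81) than these were from each other (4.05). The silicon transporter genes LSI1 and LSI2, root-preferential genes, were summed at 9.31 to 9.73 FPKM in 708RNAi_PEG, 10.0 to 10.6 FPKM in WT_PEG and 95.0 to 106 FPKM in WT_control, so root RNA was present. No leaf gene had a checked name, so leaf RNA was not checked.

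Most members stood modestly higher. In whole seedlings, a change in the cells that express a gene and a change in RNA per cell cannot be told apart. The factor, the lowest RNAi library over the highest wild-type library, ran between 1.51 and 4.23 with a median of 1.81, and 45 of the 65 were under 2. Of the others, 11 were at least 2.5, 6 at least 3 and 2 at least 4. On group means, 708RNAi_PEG was a median of 1.99 times WT_PEG (1.57 to 6.55) and 2.23 times WT_control (1.58 to 5.35). The other 6949 PEG-steady genes had a median of 0.984 times WT_PEG. In the same window 115 genes, or 1.64%, met the mirror condition, with the highest RNAi library at least 1.5 times under the lowest wild-type one. More genes thus met the mirror condition, but the 2 counts are not symmetric. The level of 1 FPKM is asked of wild-type only, and it alone kept out 66 genes on the higher side. The counts therefore do not compare the 2 directions.

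**Figure D1:**
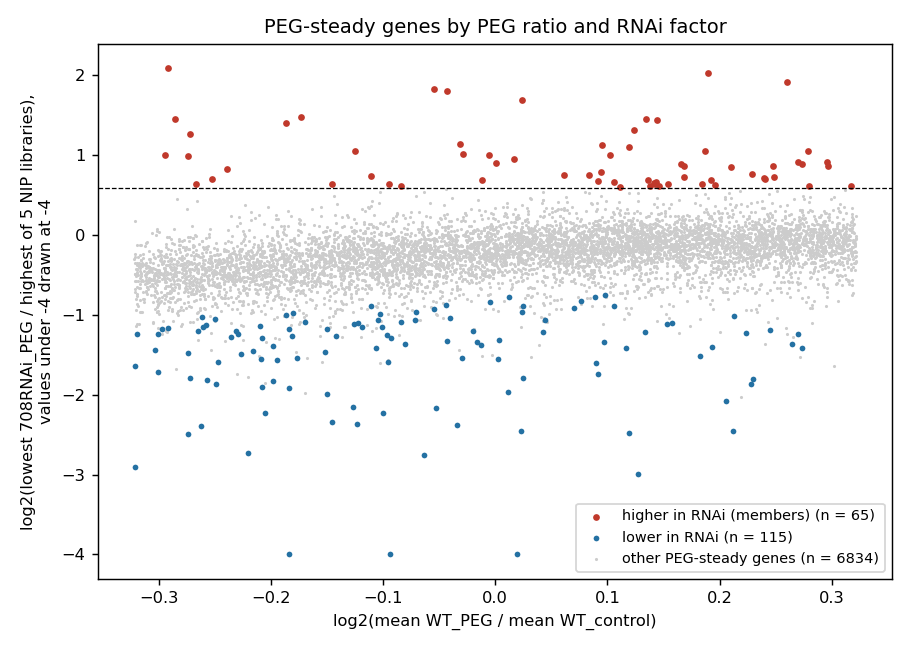
PEG-steady genes by the log2 ratio of mean WT_PEG to mean WT_control (x axis) and the log2 ratio of the lowest 708RNAi_PEG library to the highest of the 5 wild-type (NIP) libraries (y axis). Points are genes, in red the 65 members, in blue the 115 genes lower in the RNAi line and in grey the remaining 6834, and the dashed line is the factor of 1.5; the members lie above it across the whole PEG window.

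With limma on log2(FPKM + 1), 4451 of 20943 genes tested (21.3%) were called higher in 708RNAi_PEG than in WT_PEG at an adjusted p under 0.05, as were 863 of the PEG-steady genes (12.3%). In either direction, 37.6% of genes tested were called. All 65 members were among them, which the rule fixes. The groups do not overlap in any member by construction, and 1274 PEG-steady genes (18.2%) had every RNAi library above every wild-type one, while 20.2% had every RNAi library below. In the authors' deposited table the members' log2 fold changes of RNAi against wild-type in PEG ran between 0.65 and 2.71, with a median of 0.99. The log2 ratios of mean FPKM have the same range and median. Both come from the libraries that the rule used, so they are no separate support.

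The member with the largest factor was LOC_Os10g36070. It had 17.8, 20.9 and 19.4 FPKM in 708RNAi_PEG, against 1.85 and 4.06 FPKM in WT_PEG and 3.55, 3.10 and 4.20 FPKM in WT_control. The 2 WT_PEG libraries differ by more than the 3 controls do, and the lower of them rests on 21 reads. Its recovered span of 303 bp equals that of LOC_Os10g36090 beside it. Sequences were not compared, so whether they are copies that share reads is not known, and the level is uncertain. It left the set without WT_PEG replicate 2 or WT_control replicate 2 and under 2 of 3 other library scalings.

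The next 4 are better covered. LOC_Os07g34260 had 27.1, 25.9 and 26.7 FPKM in 708RNAi_PEG, against 5.63 and 6.39 FPKM in WT_PEG and 5.08, 5.56 and 5.16 FPKM in WT_control, a factor of 4.05. LOC_Os02g42585 had 12.8, 13.1 and 14.9 FPKM in 708RNAi_PEG, against 3.25 and 3.41 FPKM in WT_PEG and 2.56, 2.98 and 2.80 FPKM in WT_control. In both, mean WT_PEG was above mean WT_control. LOC_Os07g01904 had 11.5, 11.5 and 11.1 FPKM in 708RNAi_PEG, against 2.77 and 2.92 FPKM in WT_PEG and 2.87, 2.84 and 3.15 FPKM in WT_control. LOC_Os05g11320 had 65.8, 60.8 and 73.5 FPKM in 708RNAi_PEG, against 16 and 16.2 FPKM in WT_PEG and 16.1, 16.1 and 17.4 FPKM in WT_control. For these, wild-type was nearly the same with and without PEG.

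**Figure D2:**
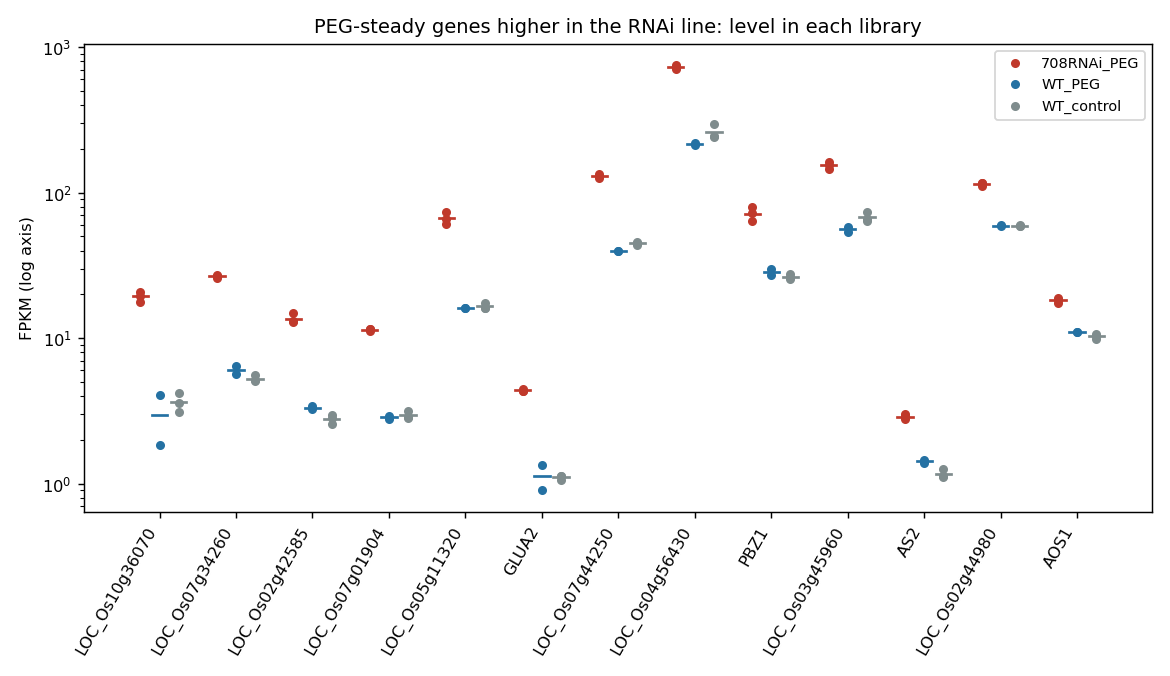
FPKM (log axis) of 13 members, those with the 6 largest factors, the 4 highest levels or a name, in order of factor. Points are libraries of 708RNAi_PEG (red), WT_PEG (blue) and WT_control (grey), and bars are group means; in each gene the red points lie above all others, as the rule requires.

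Of the 65 members, 4 could be tied to a gene name: GLUA2, PBZ1, AS2 and AOS1. The table does not pair its locus IDs with names, and the reference gene table holds 0 of them. The names were linked to the loci from memory, AS2 and AOS1 after the members were known, and checked only for the name's presence on the same chromosome, in the same order and with a gene span within 20%. The other 61 are given by locus ID, with no role.

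GLUA2 (LOC_Os10g26060) encodes a glutelin, a storage protein of the rice grain. It had 4.32, 4.34 and 4.48 FPKM in 708RNAi_PEG, against 1.34 and 0.898 FPKM in WT_PEG and 1.06, 1.13 and 1.12 FPKM in WT_control, the sixth-largest factor at 3.22. Without WT_PEG replicate 1 it was no longer a member. Glutelin genes form a family of related copies; how the authors' counting divided reads among them was not tested. A second glutelin, GLUA1, met neither the level nor the PEG window: it had 5.24, 5.76 and 5.76 FPKM in 708RNAi_PEG, against 0.452 and 0.156 FPKM in WT_PEG and 0.140, 0.184 and 0.134 FPKM in WT_control. GLUA3 had 0.649 to 0.810 FPKM in 708RNAi_PEG, against 0.0135 and 0 FPKM in WT_PEG and 0 FPKM in all 3 WT_control libraries. Of 6 seed storage genes listed, 4 have a checked name (GLUA1, GLUA2, GLUA3 and GLUB4). Without GLUA2, whose RNAi level the rule fixed, the reads of the other 3 summed to 497, 420 and 676 in 708RNAi_PEG, 35 and 11 in WT_PEG and 11, 15 and 11 in WT_control. GLUA1 gave most of these reads. It alone of the 3 passed the limma filter of 1 FPKM in 2 libraries. It did so only through 708RNAi_PEG, so its call is no test and is not given. What part seed tissue had in GLUA2's level was not tested.

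PBZ1 (LOC_Os12g36880) encodes a pathogenesis-related protein of the PR10 family, known in rice for its induction by the compound probenazole and by blast fungus. It had 72.0, 63.6 and 79.1 FPKM in 708RNAi_PEG, against 27.3 and 29.8 FPKM in WT_PEG and 25.3, 26.1 and 27.4 FPKM in WT_control. Its span is 111.9% of the reference gene's, the loosest of the 4 matches. A close neighbour, LOC_Os12g36850, is also a member, with 38.1, 33.5 and 40.7 FPKM in 708RNAi_PEG, against 16.5 and 17.2 FPKM in WT_PEG and 17.5, 17.0 and 20.1 FPKM in WT_control. In both genes replicate 2 was the lowest RNAi library and replicate 3 the highest. The 2 genes between them are no members. LOC_Os12g36860 had 3.42, 2.90 and 3.64 FPKM in 708RNAi_PEG, against 3.03 and 3.49 FPKM in WT_PEG and 0.721, 0.848 and 0.766 FPKM in WT_control. LOC_Os12g36870 had 3.74, 2.92 and 3.69 FPKM in 708RNAi_PEG, against 1.92 and 2.52 FPKM in WT_PEG and 4.03, 4.11 and 5.50 FPKM in WT_control. Within wild-type, LOC_Os12g36860 was higher in PEG and LOC_Os12g36870 lower, and LOC_Os12g36870 was called higher in 708RNAi_PEG than in WT_PEG (0.47 on the log2(FPKM + 1) scale, SE 0.13, limma adjusted p = 0.022). Beside the pair, LOC_Os12g36830 had 115, 112 and 127 FPKM in 708RNAi_PEG, against 44.1 and 43.4 FPKM in WT_PEG and 61.3, 61.4 and 63.7 FPKM in WT_control. Its factor of 1.76 met the rule, and its WT_PEG to WT_control ratio of 0.704 kept it out.

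AOS1 (LOC_Os03g55800) encodes allene oxide synthase, an early step of jasmonate synthesis. It had 18.2, 17.5 and 18.9 FPKM in 708RNAi_PEG, against 11 and 11 FPKM in WT_PEG and 10.4, 9.85 and 10.7 FPKM in WT_control, a factor of 1.59, and it was a member under 1 of 3 other library scalings. The second allene oxide synthase gene, AOS2, had 18.0, 18.7 and 17.1 FPKM in 708RNAi_PEG, against 16.4 and 17.6 FPKM in WT_PEG and 8.66, 8.38 and 9.27 FPKM in WT_control. AOS2 was thus higher in PEG within wild-type, and its RNAi difference of 0.08 on the log2(FPKM + 1) scale (SE 0.06) did not pass the limma test (adjusted p = 0.35). OPR7, an oxophytodienoate reductase of the same pathway, rose to 25.6, 25.1 and 26.6 FPKM in 708RNAi_PEG, against 19.1 and 18.4 FPKM in WT_PEG, by 0.44 on the log2(FPKM + 1) scale (SE 0.04, limma adjusted p = 7.8e-05).

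AS2 (LOC_Os01g66590) is a LOB-domain transcription factor gene, whose counterpart in Arabidopsis sets the upper and lower faces of the leaf. It had 2.90, 2.76 and 3.00 FPKM in 708RNAi_PEG, against 1.46 and 1.39 FPKM in WT_PEG and 1.12, 1.11 and 1.26 FPKM in WT_control. Both WT_PEG libraries lay above all 3 controls, with a mean ratio of 1.23 near the top of the window. It left the set without WT_PEG replicate 2 or WT_control replicate 3 and with quantile normalization.

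The most abundant members carry no checked name. LOC_Os04g56430 was the highest of all, with 752, 704 and 726 FPKM in 708RNAi_PEG, against 213 and 219 FPKM in WT_PEG and 245, 243 and 295 FPKM in WT_control. LOC_Os03g45960 had 154, 146 and 162 FPKM in 708RNAi_PEG, against 53.3 and 58.5 FPKM in WT_PEG and 65.7, 63.7 and 73.4 FPKM in WT_control. In both, wild-type was lower in PEG than without it, at mean ratios of 0.828 and 0.827, close to the lower edge of the window. Neither gene met the rule under any of the 3 other scalings of the libraries. LOC_Os07g44250 had 131, 126 and 135 FPKM in 708RNAi_PEG, against 40.0 and 39.4 FPKM in WT_PEG and 45.3, 43.4 and 45.7 FPKM in WT_control. LOC_Os02g44980 had 116, 111 and 116 FPKM in 708RNAi_PEG, against 59.4 and 59.5 FPKM in WT_PEG and 59.4, 59.6 and 59.3 FPKM in WT_control. This last gene was level across all 5 wild-type libraries; both it and LOC_Os07g44250 left the set with quantile normalization, as did LOC_Os12g36850.

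Levels over the whole set were spread widely. Mean FPKM in 708RNAi_PEG ran between 2.04 and 727 with a median of 11.6, against medians of 4.19 in WT_PEG and 3.82 in WT_control. Of the 65 members, 34 were at 10 FPKM or more in 708RNAi_PEG, 8 at 50 or more and 4 at 100 or more, while 17 had both wild-type means under 2 FPKM. The median coefficient of variation over members was 4.83% in 708RNAi_PEG, 4.57% in WT_PEG and 6.70% in WT_control. Over the other PEG-steady genes it was 4.65, 3.75 and 6.2%, so members' replicates lay no closer than theirs. Replicate 2 was the lowest RNAi library in 43 of the 65 members, and so set the factor more often than replicates 1 (12) and 3 (10). The same count was not made over the other PEG-steady genes, so this is not shown to be a trait of members. Replicate 2 is the RNAi library that stood farthest from its group, and the part of this in the choice of members was not tested.

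**Figure D3:**
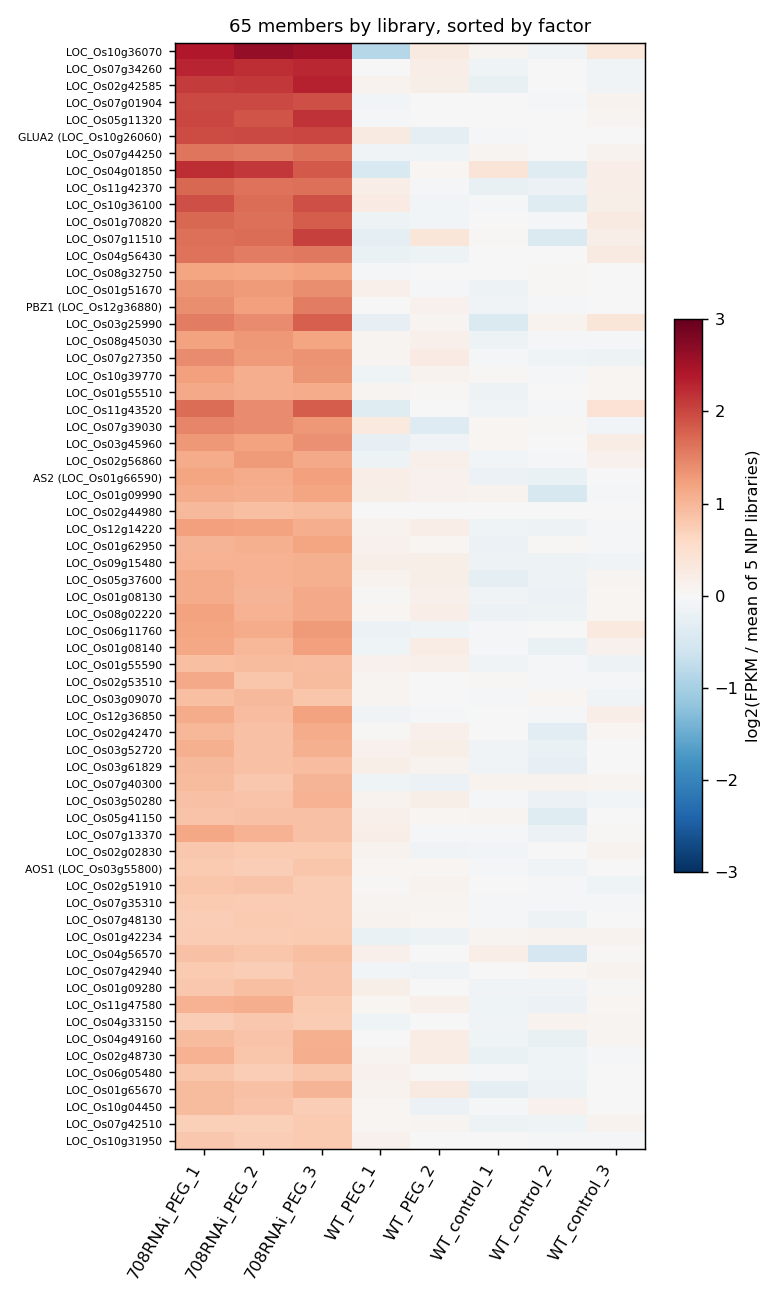
All 65 members (rows, in order of factor) by library (columns, 708RNAi_PEG, then WT_PEG, then WT_control), coloured by log2 of FPKM over the mean of the 5 wild-type (NIP) libraries. The RNAi columns are red throughout, the wild-type columns stay near white, and WT_PEG replicate 1 is blue for LOC_Os10g36070, at 1.85 FPKM.

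Within the window, mean WT_PEG exceeded mean WT_control in 44 members (67.7%) and in 53.3% of the other PEG-steady genes, and was lower in 21 members. The rule used this ratio too, so the members' limma calls are a description: 13 were called higher and 6 lower in WT_PEG than in WT_control, and 46 were not called. Over all genes tested the shares were 38.6% higher and 36.8% lower (75.3% in all), and over PEG-steady genes 19.3% and 14.8%. Among the 13, LOC_Os09g15480 had 28.0, 27.9 and 28.4 FPKM in 708RNAi_PEG, against 15.3 and 15.3 FPKM in WT_PEG and 12.3, 12.3 and 12.7 FPKM in WT_control. LOC_Os12g14220 had 75.7, 73.7 and 68.1 FPKM in 708RNAi_PEG, against 34.7 and 36.9 FPKM in WT_PEG and 29.4, 28.9 and 30.6 FPKM in WT_control. Both were lowest without PEG and highest in the RNAi line. Among the 6, LOC_Os07g40300 had 18.1, 16.3 and 18.8 FPKM in 708RNAi_PEG, against 8.53 and 8.27 FPKM in WT_PEG and 10.0, 10.0 and 9.97 FPKM in WT_control. Here the RNAi line stood above both wild-type groups although the gene was lower in PEG than without it in wild-type. These genes were chosen for display after their values were seen.

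The window bears more on the set than the upper limit does. A further 345 genes met every condition but the PEG ratio, 330 of them with a ratio above the window and 15 below it. Another 66 met all but the level of 1 FPKM, and 0 exceeded 16 times. The 3 members just inside the factor were LOC_Os10g31950 at 1.5131, LOC_Os07g42510 at 1.5191 and LOC_Os10g04450 at 1.5237. Just outside were LOC_Os03g02750 at 1.4987, LOC_Os01g53980 at 1.4954 and LOC_Os11g47500 at 1.4899. LOC_Os10g31950 had 38.6, 36.9 and 37.9 FPKM in 708RNAi_PEG, against 24.4 and 22.0 FPKM in WT_PEG and 21.8, 21.4 and 21.1 FPKM in WT_control. LOC_Os03g02750 had 25.8, 25.8 and 25.5 FPKM in 708RNAi_PEG, against 16.1 and 15.6 FPKM in WT_PEG and 17.0, 16.8 and 16.5 FPKM in WT_control. These genes on either side of the edge look alike, so the edge marks no break in the data.

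The choice was also made again without 1 RNAi library, whose level that repeated choice had not used. Chosen without replicate 1, 70 genes qualified, and 65 of them (92.9%) were at least 1.5 times the highest wild-type library in replicate 1, against 1.31% of all PEG-steady genes. Without replicate 2 the count was 65 of 78 (83.3%, against 1.14%), and without replicate 3 it was 65 of 70 (92.9%, against 1.40%). The number found again is always 65 because those genes meet the rule in all 3 libraries. They are the members, so for them the library left out is no unused measure. The shares over all PEG-steady genes also count these 65, which are 0.927% of them. The median ratio in the library left out was 1.90, 1.73 and 1.90 for replicates 1, 2 and 3. Of the genes chosen without replicate 1, and of those chosen without replicate 2, 1 fell at or below the highest wild-type library. Wild-type libraries were shared by choice and check, and the RNAi replicates share 1 line, so the check covers these libraries only.

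**Figure D4:**
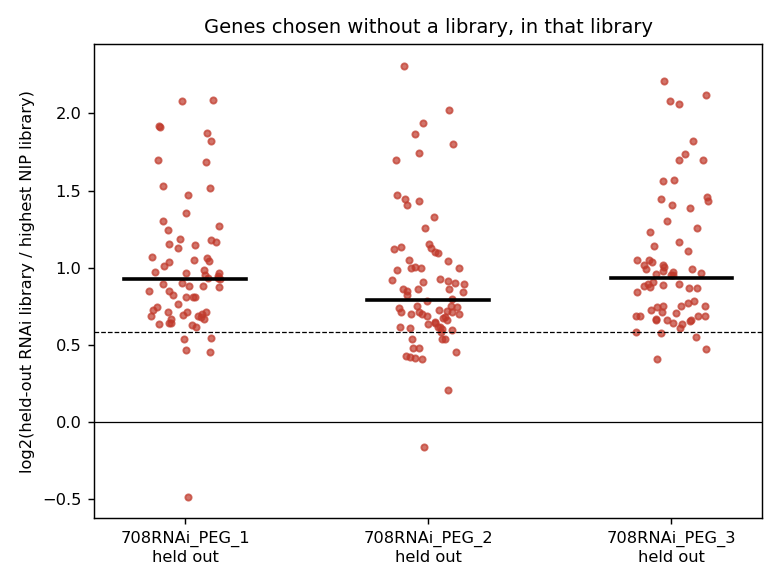
Log2 ratio of the RNAi library left out to the highest wild-type (NIP) library, for genes chosen with the other two RNAi libraries (70, 78 and 70 genes for replicates 1, 2 and 3). Points are genes, thick bars medians, and the dashed line the factor of 1.5; most points stay above the dashed line and 2 lie below 0.

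Members were shorter than other PEG-steady genes. The FPKM steps give the gene span used by the authors, which matched the whole gene with introns: for 52 of 65 genes with a name in order, it was within 10% of the reference. The median span was 1910 bp in members, 3660 bp in the other PEG-steady genes and 2350 bp in the 115 genes lower in the RNAi line. Spans under 1000 bp made up 23.1% of members, 6.36% of the other PEG-steady genes and 16.5% of the lower set. The genes lower in the RNAi line were thus also shorter than other PEG-steady genes. Short genes have fewer reads at a given FPKM and so more counting error, and the part of this in the difference was not tested.

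By chromosome, 12 members each lay on chromosomes 1 and 7, or 18.5% of the set, where 14.0% and 7.68% of PEG-steady genes lie. The 12 on chromosome 7 run from LOC_Os07g01904 to LOC_Os07g48130, along its whole numbering, and no pair of them was within 5 rows of the table. Chromosome 9 held 1 member, and chromosome 6 held 2.

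**Figure D5:**
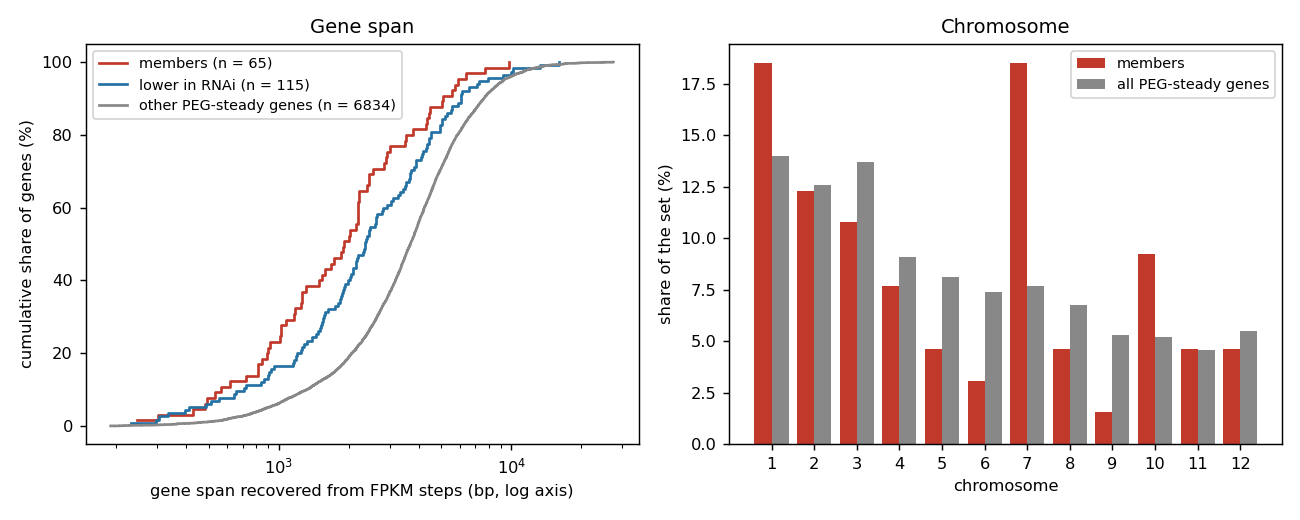
Left, cumulative share of genes (%) by recovered gene span (bp, log axis) for the 65 members, the 115 genes lower in the RNAi line and the other 6834 PEG-steady genes. Right, share (%) of members and of all PEG-steady genes on each chromosome, as bars from 0; the members' curve lies to the left of the other PEG-steady genes, and chromosome 7 holds 18.5% of members against 7.68% of PEG-steady genes.

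Within 5 rows of another member lay 6 members (9.23%), in 3 pairs, and 16 of the 115 genes lower in the RNAi line (13.9%) lay so near another of theirs. Such a share grows with the size of a set, and none was taken for other PEG-steady genes. The shares therefore do not say whether either set is clustered. Besides the PBZ1 pair, LOC_Os01g08130 and LOC_Os01g08140 are next to each other. LOC_Os01g08130 had 18.7, 17.3 and 18.7 FPKM in 708RNAi_PEG, against 8.81 and 9.55 FPKM in WT_PEG and 8.02, 7.61 and 8.88 FPKM in WT_control. LOC_Os01g08140 had 22.0, 19.8 and 22.9 FPKM in 708RNAi_PEG, against 8.97 and 11.5 FPKM in WT_PEG and 9.43, 8.62 and 10.7 FPKM in WT_control. Their levels are alike in every group, and whether their sequences are similar enough to share reads was not tested. The third pair is LOC_Os10g36070 with LOC_Os10g36100, which had 9.55, 7.92 and 9.53 FPKM in 708RNAi_PEG, against 2.94 and 2.33 FPKM in WT_PEG and 2.40, 1.93 and 2.82 FPKM in WT_control. Between them, LOC_Os10g36090 had 11.6, 10.6 and 14.7 FPKM in 708RNAi_PEG, against 4.33 and 3.77 FPKM in WT_PEG and 4.31, 3.59 and 8.25 FPKM in WT_control, and the third control kept it out of the set.

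Related pathways are given from gene lists, for genes with a checked name. These were 6 of 18 defence, 5 of 9 phytoalexin and 11 of 15 small RNA genes. Of the defence genes tested, PBZ1 is a member and its call is fixed by the rule. Of the other 5, 2 rose in 708RNAi_PEG against WT_PEG by limma and 0 fell, with a median of 0.11 on the log2(FPKM + 1) scale. The 2 were the chitin receptor genes CEBIP (0.29, SE 0.07, adjusted p = 0.0088) and CERK1 (0.19, SE 0.06, adjusted p = 0.025). Neither receptor gene met the rule. Of 5 genes of diterpenoid phytoalexin synthesis, antimicrobial compounds of rice, 5 rose, with a median of 0.71. CPS2 and KSL7 reached 1 FPKM only in 708RNAi_PEG and so passed the filter through the group where they are high. Their calls are no test, and the count and median rest partly on them. MAS had 15.9, 15.7 and 16.4 FPKM in 708RNAi_PEG, against 9.06 and 9.64 FPKM in WT_PEG and 3.07, 2.70 and 2.89 FPKM in WT_control. Within wild-type, limma called MAS and KSL4 higher in PEG, and CPS4, CPS2 and KSL7 lower. Mean FPKM in 708RNAi_PEG, WT_PEG and WT_control was 3.05, 1.89 and 2.57 for CPS4. It was 1.06, 0.0678 and 0.853 for CPS2, and 1.34, 0.431 and 0.694 for KSL7. Of the 5, 0 are members, since none was PEG-steady. Of 11 genes of the small RNA machinery, which RNAi itself draws on, 2 rose and 1 fell, with a median of 0.00 and 0 members. Among histone methyltransferase genes 0 of 2 tested were called, and among histone demethylases and deacetylases 1 of 3 rose. For DNA methylation 0 of 1 was called. Of 6 brassinosteroid genes 0 rose and 1 fell, and of 3 flowering time genes 2 rose and 1 fell. Over all genes tested, 21.3% rose and 16.4% fell, with a median of 0.01.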

How the data were processed

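Poly(A)-selected RNA was sequenced from stranded libraries, per the labels' protocols. Per the submitters' processing notes, the tools, listed with no version or role, include cutadapt, HISAT2, featureCounts and DESeq2 beside FastQC, SAMtools and deepTools. The sources used here give neither the genome build nor the use of strand in counting. The authors deposited 1 table with the FPKM of each library, group means, log2 fold changes and p-values, where adjustment is not stated. The deposited FPKM was used unchanged. Whole reads and gene spans were recovered from its steps, with a tolerance of 0.01 reads that was chosen after looser and tighter ones had been tried on these data. The 65 members, the gene lists and the processing alternatives were chosen with earlier results of these data known.

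limma 3.58.1 in R 4.3.3 was fitted to log2(FPKM + 1) of genes at 1 FPKM or more in at least 2 libraries, with all 3 groups in 1 model, a mean trend, two-sided tests and Benjamini-Hochberg adjustment over all 20943 genes. It was tested on simulated data. Such log2 differences understate the change of low genes. WT_PEG serves both comparisons, so they share it. As nothing states separate cultures for the replicates, p-values cover no more than the variation among these libraries, possibly technical.

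Members printed with values are those with a checked name, the 6 largest factors, the 4 highest levels, those next to the factor's edge and neighbouring pairs. The members LOC_Os09g15480, LOC_Os12g14220 and LOC_Os07g40300, and other genes named beside the members, were added after their values were seen. The gene table used for names was RefSeq's for the assembly ASM3414082v1. Of 125 listed loci, 68 names were on the right chromosome, 65 in order and 55 within 20% of the reference's span, a tolerance set after the spans were seen. Sequences were not used here.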

Additional observations from a re-analysis of the deposited data

How the results depend on the processing

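The set depends on its limits: 132 genes qualified at a factor of 1.3, 20 at a factor of 2, 32 with the PEG window narrowed to 0.9, and 29 with wild-type means of at least 5 FPKM. Scaling to total recovered reads left 43 genes, 36 of them shared with the 65. Equal medians gave 58 (54 shared) and quantile normalization 47 (39 shared). The median log2 ratio of 708RNAi_PEG to WT_PEG, 0.99, was 0.75 at a factor of 1.3, 1.74 at a factor of 2 and 0.93 with quantile normalization. Leaving out 1 library gave 63 to 78 genes and medians of 0.91 to 0.99; the lowest was without WT_PEG replicate 1.

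For 17 of the members printed with values, the log2 ratios under the 3 scalings and without each PEG library ran between 0.63 and 3.38. With a library left out, a value above 0 follows from the rule. LOC_Os04g56430 and LOC_Os03g45960 were members under 0 of the 3 scalings, and LOC_Os03g45960 was lost without WT_PEG replicate 2. AOS1 was lost with quantile normalization and total reads, and LOC_Os07g44250, LOC_Os02g44980 and LOC_Os12g36850 with quantile normalization. AS2 was lost with quantile normalization, without WT_PEG replicate 2 and without WT_control replicate 3, and GLUA2 without WT_PEG replicate 1. LOC_Os10g36070 was lost with equal medians, total reads, and without WT_PEG replicate 2 or WT_control replicate 2. Leaving the set need not mean a smaller RNAi difference, since the wild-type level and the PEG window are limits too. Without WT_PEG replicate 1, GLUA2 was left with 0.898 FPKM in WT_PEG, under the limit of 1 FPKM. Its log2 ratio was then 2.29, against 1.97 with all libraries. AOS1, lost with quantile normalization, had a log2 ratio of 0.63 there, against 0.73 as deposited. The limit failed in each other loss was not tabulated.

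With the check set at 1.3 times, the shares found again in the RNAi library left out were 98.6, 97.4 and 100% for replicates 1, 2 and 3. With a wild-type library left out, an alternative chosen after seeing the data, they were 83.8 and 87.7% for WT_PEG and 98.6, 100 and 90.0% for WT_control.

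Over all genes, leaving out 1 library gave 5174 to 9337 calls of 708RNAi_PEG against WT_PEG (7879 with all), with 5174 without WT_PEG replicate 2, and 14242 to 16043 of WT_PEG against WT_control (15778 with all). A filter of 5 FPKM gave 9813 calls of WT_PEG against WT_control, with fewer genes tested. The balance of the RNAi calls turned with scaling: 4451 higher and 3428 lower as deposited, 3439 and 4402 with total reads, 3489 and 4715 with limma-voom on recovered reads, 3507 and 3887 with quantile normalization. The median WT_PEG against WT_control difference of all genes was 0.02 as deposited and -0.09 (log2) with total reads. A replicate block gave 7714 and 15849 calls. Deviations of same-numbered libraries correlated between -0.23 and 0.36, and those of different-numbered libraries between -0.4 and 0.33. Deviations within a group cancel out, so these correlations cannot decide whether the numbers pair the libraries.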
